A study of Mus musculus with 6 samples.

Results

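The genes described here are 10 genes that report on or restrain bone morphogenetic protein (BMP) signalling. They are the Id genes Id1, Id2, Id3 and Id4, the inhibitory Smad genes Smad6 and Smad7, the receptor-regulated Smad gene Smad9, the secreted BMP antagonist genes Nog and Grem1, and the pseudoreceptor gene Bambi. They were found by matching the RefSeq accession of each array probe to these symbols, and each of the 10 had 1 probe, among 20013 named genes with a probe. Expression was measured in 3 kinds of cultured mouse cell with 2 arrays for each kind. The first kind was hindlimb muscle cells that settle last in serial plating, known as muscle-derived stem cells (MDSC), at passage 1 from male mice aged 5 weeks with the label Mstn null (Mstn encodes myostatin). The second was MDSC from wild-type (WT) male mice of the same age and passage. The third was W4, an established male mouse embryonic stem cell (ESC) line, at passages 12 and 15. No culture was treated, and all were harvested at 70% confluence.

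The Mstn allele, the strain and the number of mice in an isolation are not given in the sources used here. The ESC arrays are passages of 1 line, so their spread may be smaller than that between lines. The labels call the ESC colonies feeder free, whereas the growth protocol describes fibroblast feeders that were removed by a short plating step. P-values here measure only the spread between such arrays.

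BMPs are secreted ligands that bind paired type I and type II receptors, which phosphorylate Smad1, Smad5 and Smad9. These Smads join Smad4 and switch on target genes, among which the Id genes are the best known, together with Smad6 and Smad7, which feed back to block the receptors. Id proteins are helix-loop-helix proteins without a DNA-binding region. They hold E proteins in inactive pairs and so keep myogenic factors such as MyoD from acting, and in mouse ESC culture BMP-induced Id genes are known to support self-renewal together with LIF. Noggin and gremlin act outside the cell by binding BMPs, and Bambi is a receptor-like protein that lacks the kinase.

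Sequence before the transcription start is shown for the Id genes that have an entry in the RefSeq promoter table (build GRCm38.p6), because the Id genes are the readout on which the results turn. Capitals mark GGCGCC, a GC-rich motif known from BMP-responsive Id enhancers, searched on both strands, which for this palindrome are the same letters. Each run is the 250 bases before the start, printed on the gene's strand, from chr12:25096093-25096342 (minus strand) for Id2, chr4:136143572-136143821 (plus strand) for Id3 and chr13:48260866-48261115 (plus strand) for Id4.
Id2: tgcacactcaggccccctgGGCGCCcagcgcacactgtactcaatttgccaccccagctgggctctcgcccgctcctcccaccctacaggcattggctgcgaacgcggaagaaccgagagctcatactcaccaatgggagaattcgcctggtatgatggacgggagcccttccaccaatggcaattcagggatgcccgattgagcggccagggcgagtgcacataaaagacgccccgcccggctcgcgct
Id3: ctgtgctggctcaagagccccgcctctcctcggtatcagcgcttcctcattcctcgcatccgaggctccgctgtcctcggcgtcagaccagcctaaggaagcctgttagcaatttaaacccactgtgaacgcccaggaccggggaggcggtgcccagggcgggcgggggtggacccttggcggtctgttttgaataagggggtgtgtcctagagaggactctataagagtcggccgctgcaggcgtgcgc
Id4: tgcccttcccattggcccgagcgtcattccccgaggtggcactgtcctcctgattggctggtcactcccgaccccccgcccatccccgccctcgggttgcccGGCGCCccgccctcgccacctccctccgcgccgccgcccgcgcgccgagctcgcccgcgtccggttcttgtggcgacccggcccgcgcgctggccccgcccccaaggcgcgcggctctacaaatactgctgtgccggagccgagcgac

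The motif begins 231 bases before the start in Id2 and 148 bases before it in Id4, and the Id3 window does not hold these letters. Windows of 6 of the 10 genes were searched, of which 4 held GGCGCC (Id2, Id4, Smad9 and Grem1), and Id3 and Smad6 did not. Id1 and Nog had no entry, and Smad7 and Bambi were left out of the search. The counts thus do not cover these genes. Over all 32851 promoter windows of that length, 9.59% held it, and over the 9178 windows with at least 60% G and C, 26.1% did. The 6 windows had a G and C content of 62.8% to 75.6%, against a median of 52.4% over all windows. CAGACA, a Smad-binding motif (TGTCTG on the other strand), was in 0 of the 6 windows, in 17.1% of all windows and in 978 of the 9178 with at least 60% G and C. A match describes the sequence and does not show a bound site.

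Between 53.3% and 64.6% of an array's 59305 non-control spots exceeded background clearly by the scanner software's flag (called well above background), and saturation was absent. Values below are log2 signals relative to the array's own 75th percentile (called log2 signal), so the level of a gene's probe is not compared with that of another gene's. The Mstn probe read -3.06 and -2.47 for Mstn-null MDSC, -4.90 and -6.71 for WT MDSC and -7.23 and -6.85 for ESC, and exceeded background clearly in the Mstn-null arrays alone. It thus did not show a loss, its place relative to the allele is not known here, and the genotype groups are called by their labels. The WT arrays lay on 1 slide and the other 4 arrays on another, so an effect of the slide and of the WT cells cannot be told apart. Of 10 pluripotency markers 9 were lower in MDSC than in ESC, and Nanog was higher by 0.56 on the log2 scale (limma adjusted p = 0.0185). The Nanog probe read -0.20 and -0.15 (Mstn-null), -0.07 and -0.18 (WT) and -0.77 and -0.66 (ESC). Whether this probe follows the gene was not tested. Of the pluripotency markers 10 of 10 passed the background flag on each ESC array and 6 or 7 of 10 on the MDSC arrays. Pou5f1, Zfp42 and Fgf4 never passed it on the MDSC arrays. Markers of other cell types were also read: 9 of 9 macrophage markers with a probe and 10 of 10 fibroblast markers were well above background on every MDSC array. On ESC replicates 1 and 2, 5 and 7 of the 9 macrophage markers passed that flag, and 10 and 8 of the 10 fibroblast markers. The flag alone thus does not show that such cells were there. Of 8 muscle progenitor markers 5 passed that flag on both Mstn-null arrays, 7 on WT replicate 1 and 5 on WT replicate 2, and Myf5 passed it on no array.

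The question of the first comparison was how MDSC differ from ESC in expression. Id1 to Id4, Smad6, Smad9, Nog and Grem1 were higher in MDSC, and Smad7 did not pass. Of 9 tested genes of the group, 8 rose and 0 fell in MDSC against ESC, with a median log2 difference of 2.06 (7 of them with no overlap between the groups, as for 33% of all tested features), where all 25057 tested genes and features had a median of -0.03 (limma over all of them, adjusted p under 0.05). In that comparison, 28.3% of all tested features were called higher and 59.6% were called in either direction. Only genes whose probe passed the background flag throughout 1 group or more were tested, which left out Bambi. Smad9 was tested through the MDSC arrays alone, so it could enter only as a gene higher there. Its place among the 8 is thus no separate support. The count of 8 fell to 3 without ESC replicate 1 and to 4 without ESC replicate 2. Arrays of whole cultures cannot tell apart more RNA in each cell from more cells that carry it.

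**Figure D1:**
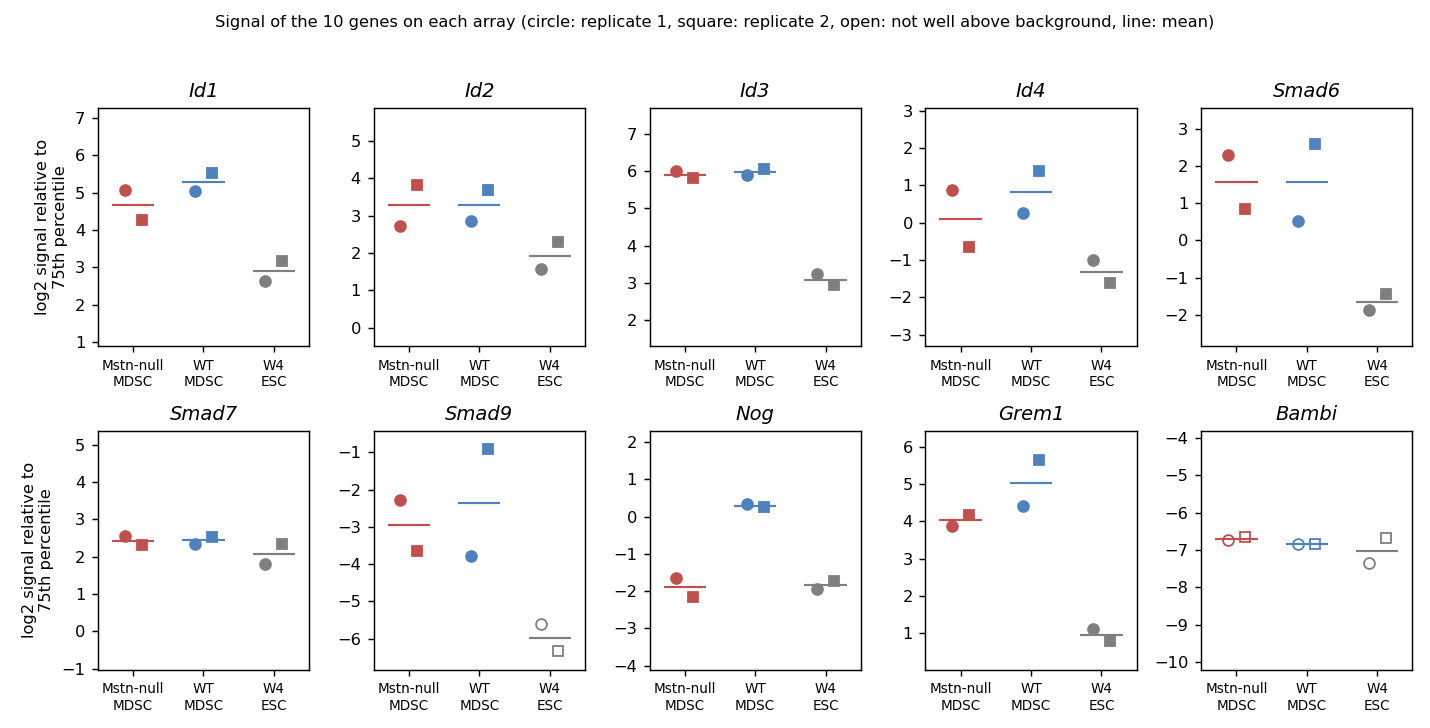
Log2 signal relative to the 75th percentile (vertical axis, the same span in each panel) of the 10 genes on the 6 arrays, by group (horizontal axis), with circles for replicate 1, squares for replicate 2, open symbols for signals not well above background and lines for group means. Id3, Id1 and Grem1 lie clearly higher on all 4 MDSC arrays than on the ESC arrays, Nog is high on the WT arrays alone, and Bambi is open on every array.

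Id3, which restrains E proteins in many proliferating cells, had the smallest adjusted p of the group in this comparison. Its log2 signal was 5.99 and 5.81 on the Mstn-null arrays, 5.89 and 6.06 on the WT arrays, with 3.23 and 2.94 on the ESC arrays. All 4 MDSC arrays lay within 0.26 of each other and the ESC arrays lay far below. Id3 was 7.22-fold higher in MDSC, a log2 difference of 2.85 ± 0.17 (SE, n = 4 and 2 arrays, limma adjusted p = 4.02e-04), and 5.46% of all tested features had a larger positive difference.

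Id1, a BMP target in most cell types, gave 5.07 and 4.27 on the Mstn-null arrays, 5.04 and 5.53 on the WT arrays, with 2.64 and 3.18 on the ESC arrays. The groups of MDSC and ESC did not overlap. The log2 difference was 2.06 ± 0.32 (limma adjusted p = 0.00491). Under the alternatives the adjusted p ranged from 0.00318 to 0.0480 for Id1 and from 1.45e-04 to 0.00890 for Id3.

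Id2, which also answers to signals other than BMP, gave 2.72 and 3.82 on the Mstn-null arrays, 2.87 and 3.69 on the WT arrays, with 1.57 and 2.29 on the ESC arrays. Id4, known from neural progenitors, gave 0.87 and -0.66 on the Mstn-null arrays, 0.25 and 1.39 on the WT arrays, with -1.0 and -1.62 on the ESC arrays. For both genes every MDSC array was higher than every ESC array, but the arrays of a group lay apart by as much as 1.1 (Id2) and 1.53 (Id4). Id2 rose by 1.35 ± 0.44 (adjusted p = 0.0490) and Id4 by 1.77 ± 0.56 (adjusted p = 0.0436), both close to the threshold. The Id2 call ended on leaving out Mstn-null replicate 2 (adjusted p = 0.0910), WT replicate 1 (0.0533), WT replicate 2 (0.103), ESC replicate 1 (0.228) or ESC replicate 2 (0.0844). The Id4 call ended on leaving out Mstn-null replicate 1 (adjusted p = 0.0671), WT replicate 2 (0.0892), ESC replicate 1 (0.0999) or ESC replicate 2 (0.203). Both calls also ended within the slide that holds Mstn-null and ESC arrays (adjusted p = 0.0830 for Id2 and 0.115 for Id4) and with no filter on dim probes (0.0691 for Id2 and 0.0614 for Id4).

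Smad6, which blocks BMP receptors in preference to TGF-beta receptors, gave 2.30 and 0.85 on the Mstn-null arrays, 0.53 and 2.60 on the WT arrays, with -1.87 and -1.43 on the ESC arrays. All MDSC arrays were higher than both ESC arrays, though the MDSC arrays of a genotype differed by 1.44 and 2.07. Smad6 rose by 3.22 ± 0.71 (9.32-fold, adjusted p = 0.0146), and either ESC array left out ended the call (adjusted p = 0.0825 without replicate 1 and 0.0654 without replicate 2).

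Smad7, the inhibitory Smad that acts on both BMP and TGF-beta receptors, did not pass. It gave 2.54 and 2.30 on the Mstn-null arrays, 2.34 and 2.53 on the WT arrays, with 1.80 and 2.35 on the ESC arrays, and the groups overlapped. The log2 difference was 0.36 ± 0.21 with a 95% confidence interval of -0.19 to 0.91 (limma adjusted p = 0.200).

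Smad9, a Smad that BMP receptors phosphorylate, gave -2.29 and -3.64 on the Mstn-null arrays, -3.77 and -0.93 on the WT arrays, with -5.61 and -6.33 on the ESC arrays. Its probe passed the background flag in every MDSC array and in neither ESC array. The mean of Smad9 was therefore at least 5.40-fold higher in MDSC (limma adjusted p = 0.0269). Such a bound sets the MDSC mean against each ESC array's lowest signal well above background, or the gene's own signal if higher. Each value given as at least a fold is such a bound on means and does not count the spread between arrays. For Smad9 the 95% confidence interval of the log2 difference was 1.02 to 5.61. The call ended on leaving out Mstn-null replicate 1 (adjusted p = 0.0657), ESC replicate 1 (0.0851) or ESC replicate 2 (0.14), and with another background correction, normexp (0.0769).

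Grem1, a secreted antagonist of BMP2 and BMP4 made by many mesenchymal cells, had the largest difference among the members measured above background throughout. It gave 3.89 and 4.17 on the Mstn-null arrays, 4.40 and 5.66 on the WT arrays, with 1.13 and 0.79 on the ESC arrays. Every MDSC array was at least 2.76 higher than either ESC array. Grem1 rose by 3.57 ± 0.38 (11.9-fold, adjusted p = 0.00173), and 3.17% of all tested features had a larger positive difference. Fibroblast markers were also higher in MDSC than in ESC, where 8 of 10 rose. The list's mean log2 signal was 5.50 and 5.92 (Mstn-null), 5.66 and 4.20 (WT) and 1.96 and -0.78 (ESC). Among the MDSC arrays the list was lowest on WT replicate 2, where Grem1 was highest. All 9 macrophage markers rose as well. The part of these cells in the Grem1 result was not tested.

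Nog, which encodes noggin, a secreted BMP antagonist, was high in WT MDSC alone. It gave -1.63 and -2.15 on the Mstn-null arrays, 0.34 and 0.25 on the WT arrays, with -1.94 and -1.72 on the ESC arrays. The WT arrays were high, and the Mstn-null arrays overlapped with the ESC arrays. The pooled log2 difference of 1.03 ± 0.20 (adjusted p = 0.00989) therefore averages unlike groups, and it stood at -0.06 (adjusted p = 0.848) within the slide that holds the Mstn-null and ESC arrays. The pooled call also ended without ESC replicate 1 (adjusted p = 0.0535).

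Bambi, which dampens BMP and TGF-beta signals at the receptor, gave -6.74 and -6.66 on the Mstn-null arrays, -6.85 and -6.83 on the WT arrays, with -7.36 and -6.69 on the ESC arrays. Its probe was not well above background on any of the 6 arrays, so no difference could be measured.

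Against ESC, the genotypes were also set apart. On the Mstn-null arrays 4 of 9 genes rose (Id1, Id3, Smad6 and Grem1), where 23.3% of all tested features were called higher, and on the WT arrays 7 of 9 rose (the same 4, Id4, Smad9 and Nog), where 27.1% were. Both comparisons share the ESC arrays, and Smad9 was tested through MDSC arrays alone. The Mstn-null count fell to 2 without Mstn-null replicate 1 or ESC replicate 1, and the WT count to 4 without WT replicate 2 or either ESC array. For Id1 the log2 difference from ESC was 1.76 ± 0.37 in Mstn-null MDSC (adjusted p = 0.0141) and 2.37 ± 0.37 in WT MDSC (adjusted p = 0.00624), n = 2 arrays a group in limma. The Id1 call in Mstn-null MDSC ended under 3 of 17 alternatives, among them leaving out replicate 1 of the Mstn-null arrays or of the ESC arrays. In WT MDSC the Id1 call ended under 1 of 17. For Id3 it was 2.81 ± 0.19 in Mstn-null and 2.89 ± 0.19 in WT MDSC, and for Grem1 it was 3.07 ± 0.44 in Mstn-null and 4.07 ± 0.44 in WT MDSC. Id2 passed in neither genotype, at 1.34 ± 0.51 in Mstn-null MDSC (adjusted p = 0.0785) and 1.35 ± 0.51 in WT MDSC (adjusted p = 0.0776). Id4 stood at 1.42 ± 0.65 in Mstn-null MDSC (adjusted p = 0.122) and at 2.13 ± 0.65 in WT MDSC (adjusted p = 0.0430), a call that ended on leaving out either WT array or either ESC array (adjusted p from 0.0551 to 0.170). Smad6 was 3.23 ± 0.82 higher in Mstn-null MDSC (adjusted p = 0.0249) and 3.21 ± 0.82 higher in WT MDSC (adjusted p = 0.0260) on the log2 scale. The Smad6 call in Mstn-null MDSC ended without Mstn-null replicate 1 (adjusted p = 0.102), ESC replicate 1 (0.104) or ESC replicate 2 (0.0816), and that in WT MDSC without WT replicate 2 (0.0668, at 2.18), ESC replicate 1 (0.106) or ESC replicate 2 (0.0851). Smad7 passed in neither, at 0.35 ± 0.25 in Mstn-null MDSC (adjusted p = 0.276) and 0.37 ± 0.25 in WT MDSC (adjusted p = 0.257). The bound on the Smad9 means was 4.37-fold in Mstn-null MDSC, where the gene did not pass (limma adjusted p = 0.0586, 95% interval of the log2 difference 0.36 to 5.66). In WT MDSC the bound was 6.68-fold, and the gene passed (limma adjusted p = 0.0355, interval 0.97 to 6.27). Without either WT array, Smad9 passed in Mstn-null MDSC (adjusted p = 0.0176 without replicate 1 and 0.0171 without replicate 2), and without either Mstn-null array, WT replicate 2 or either ESC array it did not pass in WT MDSC (adjusted p from 0.0522 to 0.144). Nog stood at -0.06 ± 0.23 in Mstn-null MDSC (adjusted p = 0.836) and was 2.12 ± 0.23 higher in WT MDSC (4.36-fold, adjusted p = 0.00245). A call in a single genotype is no test of a difference between genotypes, which is given next.

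**Figure D2:**
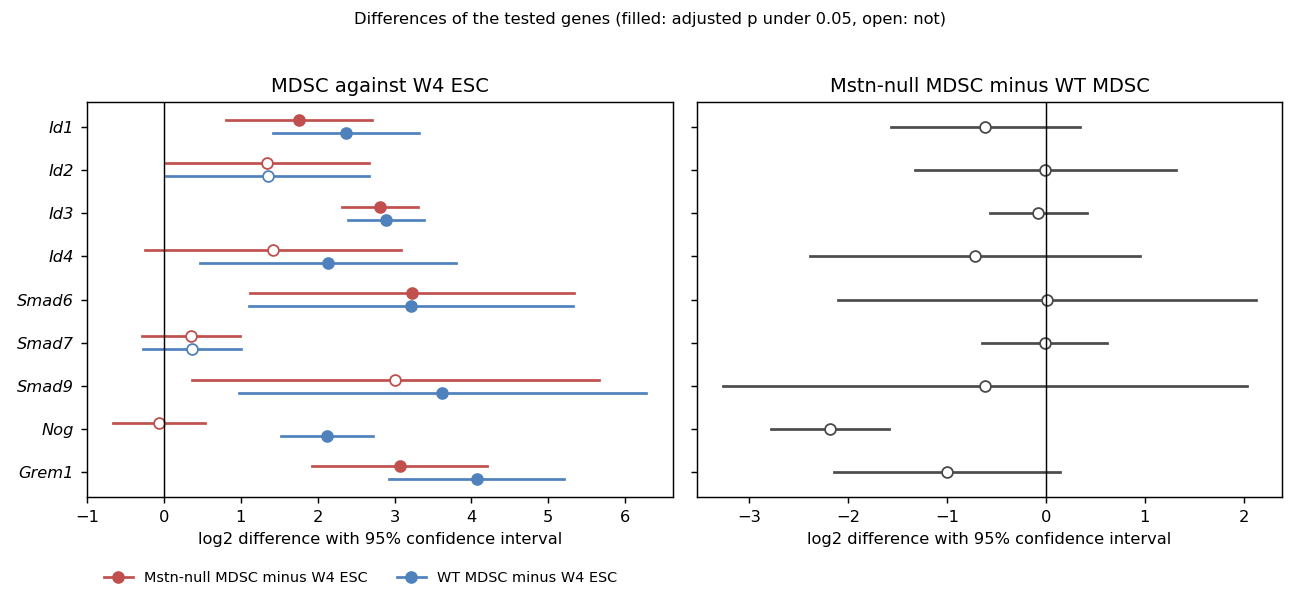
Log2 differences with 95% confidence intervals (horizontal axis) of the 9 tested genes, for Mstn-null and WT MDSC against W4 ESC on the left and for Mstn-null minus WT MDSC on the right, with filled symbols for adjusted p under 0.05. Nog is at -0.06 in Mstn-null MDSC (0.05 with quantile and 0.16 with median scaling) and at 2.12 in WT MDSC against ESC, and no gene is filled on the right.

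The genotype comparison asked whether cells labelled Mstn-null differ from WT cells in these genes. None of the 9 tested genes passed, and of all 25057 tested features 0% passed (limma, adjusted p under 0.05), while 3671 (14.7%) had an unadjusted p under 0.05. The model with a variance trend and robust fit also called 0. The median log2 difference of the 9 genes was -0.61, against -0.12 over all tested features. In 8 of 9 genes the Mstn-null mean was the lower one, though the sign turned with quantile or median scaling for Id2, Id3 and Smad7. Most tested features were lower too: 36.8% had a difference above that of Smad5, which stood at -0.00115. The Mstn-null and WT arrays did not overlap in 2 of the 9 genes, Nog and Grem1, both lower in Mstn-null, as were 34.8% of all tested features.

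Nog was closest to passing. The Mstn-null arrays, at -1.63 and -2.15, were lower than the WT arrays, at 0.34 and 0.25, by 2.19 ± 0.23 on the log2 scale (4.55-fold, unadjusted p = 2.24e-04, limma adjusted p = 0.0649), the 85th smallest p of 25057. Under the alternatives its adjusted p ranged from 0.0519 to 0.342 and it stayed lower in Mstn-null in each. This is also the test of whether the genotypes differ in their distance from ESC, since the ESC mean cancels. Muscle markers moved with Nog in part: the mean log2 signal of 10 differentiating muscle markers was 0.14 and -0.49 on the Mstn-null arrays, 3.44 and 0.49 on the WT arrays, with -2.36 and -2.04 on the ESC arrays. Macrophage markers ran the other way, at 2.19 and 3.92 on the Mstn-null arrays and 0.58 and -0.53 on the WT arrays. The part of these cells in the Nog difference was not tested, and slide and genotype cannot be told apart.

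Grem1 was lower in Mstn-null by 1.0 ± 0.44 on the log2 scale (limma adjusted p = 0.402), mainly through WT replicate 2, which lay 1.25 above WT replicate 1. Without that array the difference was -0.37. The Id3 difference was -0.08 with a 95% interval of -0.57 to 0.41, and that of Smad7 was -0.01 with an interval of -0.65 to 0.62. Id1 stood at -0.61 (interval -1.56 to 0.34), Id2 at -0.01 (-1.33 to 1.31) and Id4 at -0.71 (-2.38 to 0.95). The intervals of Smad6, at 0.01 (-2.10 to 2.12), and Smad9, at -0.61 (-3.26 to 2.03), were wider.

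The order of the MDSC arrays was shared by several genes of the group. In 6 of the 9 tested genes, Id1, Id3, Id4, Smad6, Smad7 and Smad9, the 2 highest MDSC arrays were Mstn-null replicate 1 and WT replicate 2, a pair that was highest for 19.8% of all tested features. The gap between replicate arrays of a genotype was 1.36 in Mstn-null and 2.85 in WT for Smad9, larger than that of 96.3% and 99.0% of all tested features. For Smad6 the gap exceeded that of 96.7% of features in Mstn-null and 97.6% in WT. Id3 and Smad7 varied little, with the 4 MDSC arrays within 0.26 and 0.24 of each other. Their gaps exceeded those of 46.4% (Id3) and 56.6% (Smad7) of features in Mstn-null and of 35.7% and 37.3% in WT. Their order thus rests on small differences. Id2 had Mstn-null replicate 2 and WT replicate 2 highest, and Nog and Grem1 had both WT arrays highest. Of 10 other BMP target genes, 4 had the same 2 arrays highest, among them Atoh8, a transcription factor gene induced by BMP in endothelium and liver, and Gata2. Atoh8 read 1.14 and -0.34 on the Mstn-null arrays and -0.53 and 1.71 on the WT arrays.

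**Figure D3:**
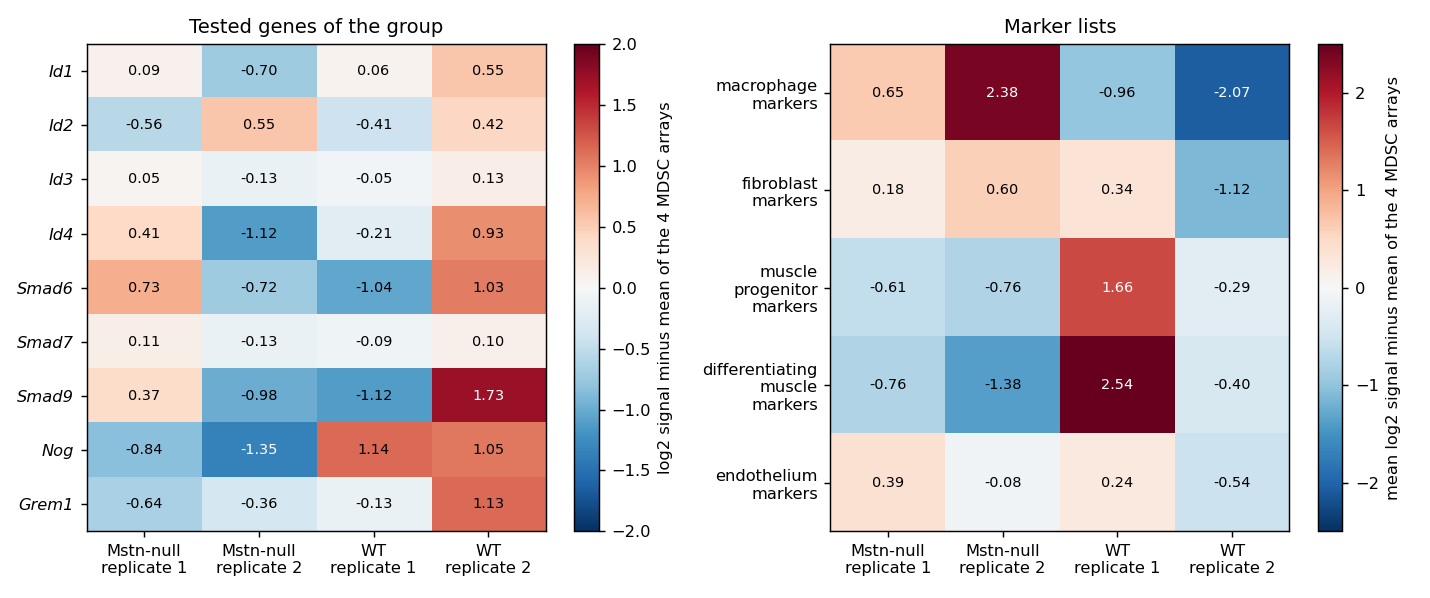
Deviation of each MDSC array from the mean of the 4 MDSC arrays (colour and printed value, log2) for the 9 tested genes on the left and for the mean of each marker list on the right, with arrays along the horizontal axis. Id1, Id3, Id4, Smad6, Smad7 and Smad9 are positive on Mstn-null replicate 1 and WT replicate 2, whereas macrophage and fibroblast markers are lower on these arrays than on the other array of the same genotype.

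Some marker lists differed the same way between the replicate arrays of both genotypes, and others did not. Within each genotype the array with higher Smad6 and Smad9 had the lower macrophage level (2.19 against 3.92 in Mstn-null, and -0.53 against 0.58 in WT) and the lower fibroblast level (5.50 against 5.92 in Mstn-null, and 4.20 against 5.66 in WT). Endothelial markers, whose cells are known for high Smad6 and Id1, read -2.23 on Mstn-null replicate 1 and -3.16 on WT replicate 2, against -2.70 on Mstn-null replicate 2 and -2.38 on WT replicate 1. Of these markers, Tie1 and Emcn passed the background flag on no array. Differentiating muscle markers read 0.14 on Mstn-null replicate 1 and 0.49 on WT replicate 2, against -0.49 on Mstn-null replicate 2 and 3.44 on WT replicate 1. Muscle progenitor markers read -2.45 and -2.13 on the first 2 of these arrays, against -2.59 and -0.18 on the others. Both muscle lists thus went opposite ways in the genotypes. The part of the cell mixture in this pattern was not tested.

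Other genes of the pathway were read from lists by role. They are given as counts and as log2 differences and their medians, beside the median of -0.03 over all tested features. Of all tested features 28.3% were called higher in MDSC against ESC and 59.6% in either direction, the shares beside which each count stands. Bmp5, Gdf6, Chrdl1, Chrdl2, Runx2, Myog and Myod1 were well above background on no ESC array. Tested through MDSC arrays alone, they could enter only as higher and are no separate support in the counts. BMP ligands moved both ways in MDSC against ESC, with 5 of 11 tested genes higher and 4 lower (median 0.47). Bmp4, the ligand most used in ESC culture, fell by 2.95 and Bmp8b by 3.14, while Bmp5 was at least 4.85-fold higher and Gdf6 rose by 3.09. The Bmp8b probe was not well above background on either Mstn-null array. The Gdf6 probe was well above background on neither ESC array and not on WT replicate 2.

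Receptors were mostly higher, with 7 of 10 called higher and 1 lower (median 1.91). The type I receptor genes Bmpr1b and Acvr1 rose by 3.65 and 2.54, and the co-receptor gene Eng by 2.52. Acvr2b, a type II receptor gene shared with activin and myostatin, fell by 5.48. Of the 5 Smad transducers, Smad1, Smad3 and Smad5 rose, by 1.39, 2.05 and 0.88, and Smad2 (0.00) and Smad4 (0.17) did not pass.

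The antagonists and extracellular modulators beyond Nog and Grem1 were higher in 12 of 14 tested genes and lower in 0 (median 3.06). Bmper, which binds BMPs in the matrix, rose by 5.89, Fstl1, a follistatin-like gene, by 4.03, and Chrdl1, a chordin-like antagonist gene, was at least 7.54-fold higher. Chrdl2 rose by 4.19 but was well above background on neither ESC array and not on WT replicate 2. Chrd, chordin itself, did not pass (0.34, adjusted p = 0.124), nor did Sostdc1 (-0.48, adjusted p = 0.397). Sost and Cer1 were not tested. Fibroblast markers rose in MDSC too, as given above, and their part in these differences was not tested.

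**Figure D4:**
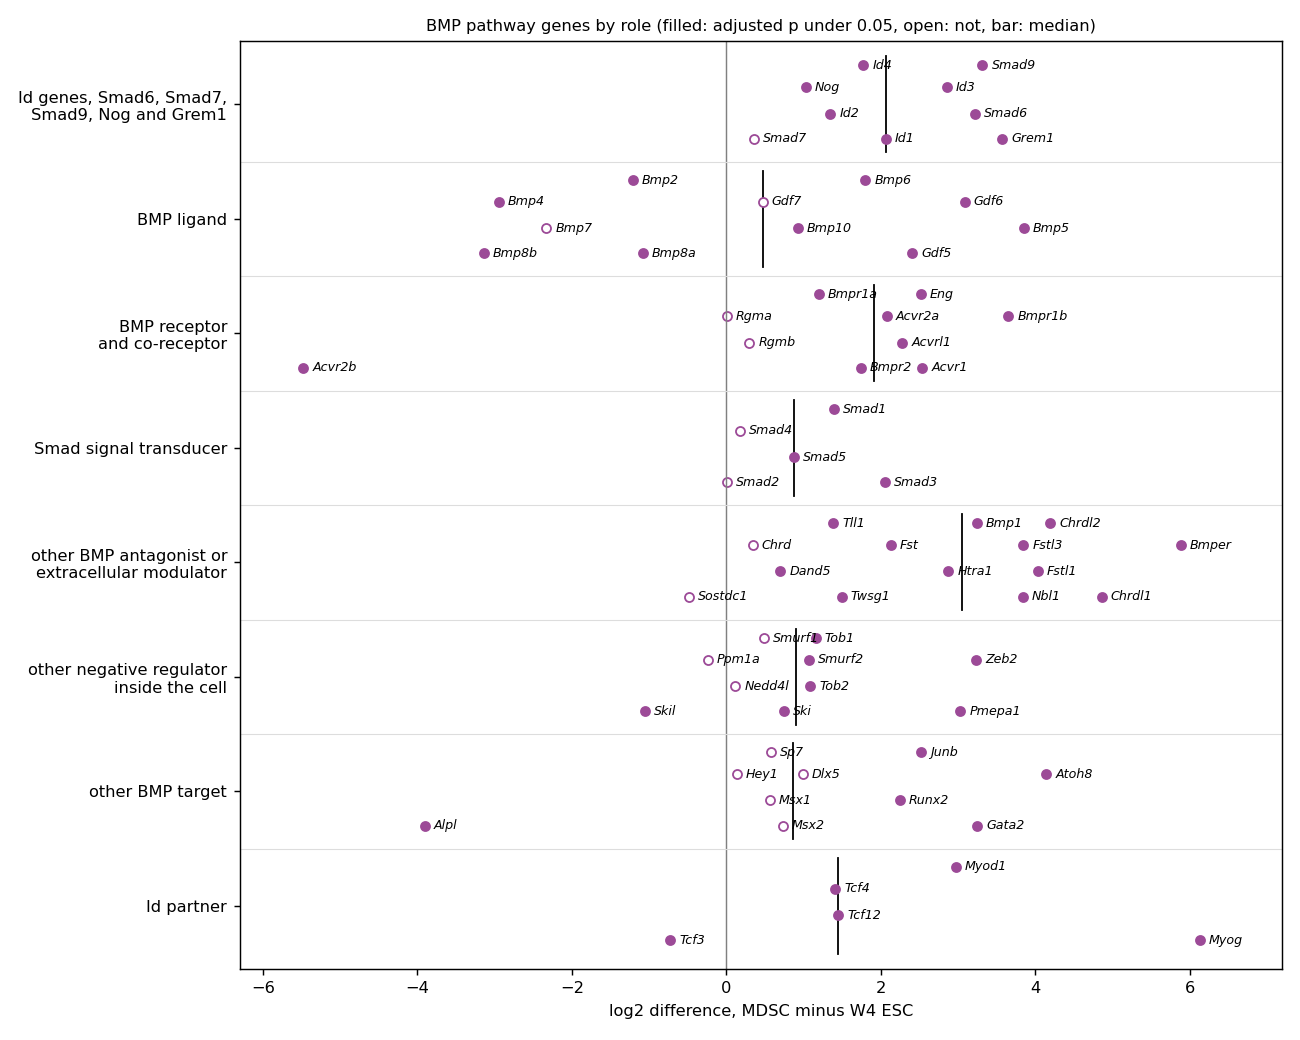
Log2 difference, MDSC minus W4 ESC (horizontal axis), of each tested gene of the group and of the pathway lists by role (vertical axis), with filled symbols for adjusted p under 0.05 and a bar at the median of each list. The list of other antagonists and extracellular modulators has the median furthest to the right, at 3.06, and the ligands lie on both sides of 0.

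Of the other negative regulators inside the cell, 6 of 10 were higher and 1 lower (median 0.91). Zeb2, a Smad-binding repressor gene, rose by 3.23 and Pmepa1, which limits TGF-beta signalling, by 3.03. Tob1 and Tob2 rose by 1.16 and 1.08, and Skil fell by 1.05. Of the other BMP targets, 4 of 10 were higher and 1 lower (median 0.86). Over all tested features 28.3% were called higher and 59.6% in either direction. Atoh8 rose by 4.14, with ESC replicate 2 not well above background, Gata2 by 3.25 and Junb by 2.52, and Alpl, an alkaline phosphatase gene that also marks ESC, fell by 3.90. Msx1 and Msx2, homeobox genes used as BMP readouts in the limb, did not pass (0.56 and 0.73, adjusted p of 0.255 and 0.131). Of the 10 listed targets, 5 thus did not pass.

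The partners of Id proteins also differed. Of 5 tested, 4 rose and 1 fell in MDSC, where 28.3% of all tested features were called higher. Myog and Myod1, among the 4, were tested through the MDSC arrays alone and could enter only as higher. The E protein genes Tcf12 and Tcf4 rose by 1.45 and 1.41, and Tcf3, which encodes E2A, fell by 0.73. Myog and Myod1, which need E proteins to act, were at least 42.3-fold and at least 6.33-fold higher. Against ESC, the bound on the Myod1 means was 2.60-fold in Mstn-null MDSC, where the gene did not pass (limma adjusted p = 0.106). The 95% interval of that log2 difference was -0.18 to 3.55 and included 0. In WT MDSC the bound was 15.4-fold, and the gene passed (limma adjusted p = 0.00798, interval 2.39 to 6.11). Myog stood at -0.16 and -1.75 on the Mstn-null arrays, 2.58 and 0.58 on the WT arrays, with -5.44 and -6.19 on the ESC arrays. Between genotypes, 0 genes of any of these 7 lists passed, as for 0% of all 25057 tested features.

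Genes whose signal followed a member most closely over the 6 arrays were sought among 12805 other named genes clearly above background throughout, by the root mean square distance between mean-centred log2 values. For Id3 the nearest were Magee1 (0.09), Mbnl2 (0.10) and Cyp2j6 (0.11), and for Id1 they were Hmgn3 (0.12), Irs1 (0.15) and Ttyh3 (0.17). For Nog they were Amer3 (0.19), Siah3 (0.21) and Lmo7 (0.23), and for Grem1 they were Emp2 (0.32), Mcub (0.33) and Eml1 (0.34). For Smad6 the nearest, Prkca, Tnxb and Cebpa, lay 0.35 to 0.40 away, and for Id4 they were Rorb, Hhip and Rbmx at 0.22 to 0.27. For Id2 they were Kctd12b, Atp6v0a1 and Gch1 at 0.21 to 0.23, and for Smad7, which varied little, they were 2310011J03Rik, Zc4h2 and Uros at 0.06 to 0.07.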

How the data were processed

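RNA was labelled with Cy3, and every sample had its own Agilent 1-colour mouse array, per the labels' protocols. The authors deposited spot intensity made by Feature Extraction, whose version reads 10.7.1.1 in the file headers but 9.1 in the submitters' processing notes. That intensity is corrected for background within an array and not scaled between arrays, and the array design names build mm9, per the file headers. Other deposited columns hold the authors' flags (background, outlier, control).

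From these, each processed signal was taken as log2 after scaling to its array's 75th percentile (controls left out), outlier spots (100 to 122 an array) were dropped, spots of a probe were averaged, and the probe with the highest mean stood for a gene. Probes were named through RefSeq accessions (26413 of 55681, assembly GRCm38.p6). Group means of all 6 arrays were fitted with limma 3.58.1 in R 4.3.3, with two-sided tests on 3 residual degrees of freedom and a prior worth 2.02, and p-values were Benjamini-Hochberg adjusted over 25057 tested genes and unnamed features. The steps were tested on simulated data. The number of arrays limits the precision.

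The members and lists were chosen with earlier results of these data known. All 10 members are named, with up to 4 called genes of largest difference from each pathway list, other list genes as examples chosen after their values were seen, and the 3 nearest patterns of each member well above background on all arrays. Of 135 list genes, 134 had a probe, all but the macrophage marker Cd68, and 1 further pathway gene is not reported here. The alternatives were quantile and median scaling, normexp on median signals (the files hold no mean signal), other filters, flags, probes, fits and arrays left out.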

Additional observations from a re-analysis of the deposited data

How the results depend on the processing

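Id1, Id3 and Grem1 were called higher in MDSC than in ESC under all 17 alternatives, and Nog was called higher in WT MDSC than in ESC under all of that comparison's. The WT and ESC arrays lay on different slides in each of these, so the Nog calls could not test an effect of the slide. Of 8 members higher in MDSC against ESC, 5 were called within the slide that holds both kinds of cell, where Nog stood at -0.0619, and 5 were called without WT replicate 1 and ESC replicate 1 together, a setting chosen after seeing the data. Without these arrays 4 members were higher in WT MDSC against ESC, 4139 features were lower there, and Smad6 stood at -1.02 in Mstn-null against WT MDSC. With arrays left out in turn, 3 to 7 members were higher in MDSC against ESC, 2 to 5 in Mstn-null MDSC and 4 to 6 in WT MDSC, and 3638 to 5608 features were higher and 4335 to 7304 lower in Mstn-null MDSC against ESC. No member was called between genotypes under any alternative. All features then gave 11 higher and 14 lower calls with quantile scaling and 28 and 57 with the least variable probe of a gene, against 0 and 0. Between genotypes the difference ranged, with arrays left out, from -0.56 to 0.54 for Id2, -0.166 to 0.0109 for Id3, -1.48 to 0.0490 for Id4, -1.02 to 1.05 for Smad6, -0.13 to 0.11 for Smad7 and -2.04 to 0.81 for Smad9, and that of Nog in Mstn-null MDSC against ESC from -0.32 to 0.20. With quantile scaling and with median centring, the genotype difference was 0.0776 and 0.152 for Id2, 0.0502 and 0.0826 for Id3 and 0.0243 and 0.147 for Smad7, and Nog in Mstn-null MDSC against ESC was 0.0476 and 0.162. Median centring moved the median of all features to 0.04, against -0.12, between genotypes, and to 0.12, against -0.03, between MDSC and ESC. The replicate numbers did not pair the arrays (r = -0.397 between same-numbered deviations): the replicate block and the crossed pairing, added after seeing the data, called 0 features, with Nog at -2.19 in both. The causes of these changes were not tested. The number of arrays, 2 a group, limits all of these values.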
